A study of Mus musculus with 3 samples.

Results

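Respiratory complexes II to V are the part of the mitochondrial machinery that carries electrons from succinate, ubiquinol and cytochrome c to oxygen and then makes ATP. The genes described here were chosen by symbol, namely Sdha to Sdhd, every symbol beginning with Uqcr, Cox4 to Cox8 or Atp5, and Cyc1 and Cycs, wherever a probe set of the array carried that symbol alone. The rule found 70 probe sets for 48 genes, out of 28943 probe sets and 19938 named genes. The 48 genes comprised 4 of complex II, 9 of complex III, cytochrome c (Cycs), 16 of complex IV, the supercomplex factor Cox7a2l and 17 of complex V.

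RNA from 3 mouse samples was hybridised to 3 arrays, 1 per group. The groups were cultured mouse fibroblasts, cells named DiBA in a series about brown adipocytes made by direct conversion, and a brown adipocyte sample named BA. The BA sample has brown adipose tissue as its labelled source and is also described as cultured. The sources used here do not give strain, age, the conversion method or any agent added to the cells. With 1 array per group there is no spread between replicates and no test, so no difference below has a replicate check and all of them describe these arrays alone. The comparison of DiBA with fibroblasts asks how far these genes differ between the arrays so labelled. The comparison with BA asks how near the DiBA array lies to the BA array. Markers of skeletal muscle and endothelium were also high in DiBA and BA, as given below. Neither comparison can therefore be read as one of converted cells alone.

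Complex II (succinate dehydrogenase) passes electrons from the citric acid cycle to ubiquinone. Complex III hands them to cytochrome c, and complex IV (cytochrome c oxidase) hands them to oxygen. Complexes III and IV pump protons, and complex V (ATP synthase) lets protons flow back to make ATP. Brown adipocytes are packed with mitochondria in which the uncoupling protein Ucp1 lets protons return without ATP synthesis, and brown fat of rodents is known for a rich respiratory chain beside little ATP synthase. Complex IV has subunits with tissue isoforms. Cox6a2, Cox7a1 and Cox8b are known as the heart and skeletal muscle forms, Cox4i2 as a form of lung, and Cox6b2, Cox7b2 and Cox8c as forms of testis.

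The arrays had similar median intensities, from 67.7 for BA to 71.5 for DiBA. Of all probe sets, 33.4% carried exactly the same deposited value on all 3 arrays, against 1 of 70 probe sets here, that of Cox8c. The labelled cell types were set against marker genes. All 12 brown adipocyte markers were at least 2-fold higher in both DiBA and BA than in fibroblasts, with summed intensities of 617 in fibroblasts, 33001 in DiBA and 34085 in BA. Of 9 fibroblast markers, 5 were at least 2-fold lower in DiBA and 6 in BA, and Lum and Dcn were at least 2-fold higher in both. Markers of other cell types were also high on both adipocyte arrays, although DiBA is labelled as cultured cells. All 5 endothelial markers were at least 2-fold higher in both than in fibroblasts, with summed intensities of 370.1 in fibroblasts, 2472 in DiBA and 2937 in BA. Of 5 macrophage markers, 5 were higher in DiBA and 4 in BA, with sums of 949.8, 2733 and 2527. Whether those cells contributed RNA of the genes below was not tested. In such samples, fewer cells of a type and less RNA per cell cannot be told apart.

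Most subunits of complexes II to V were higher in DiBA and in BA than in fibroblasts, by medians of 3.06-fold and 3.32-fold. A gene counted as higher or lower when it differed by 2-fold or more on the log2(intensity + 1) scale and its brighter array reached 69.2, the median of all probe sets. This level filter passed 46 of the 48 genes in each comparison. In DiBA, 37 of the 48 genes were higher than in fibroblasts and 1 was lower, against 14.7% higher and 13.2% lower among all genes that passed the filter. In BA, 38 were higher and 1 was lower, against 16.3% and 16.4%. These shares are larger among brighter genes. With the filter at the 75th percentile of intensity, 1265 of 6487 genes were higher and 1115 lower in DiBA. In BA, 1456 of 6616 were higher and 1355 lower. The counts of members were the same under that filter. A difference of at least 4-fold was reached by 14 genes in DiBA, against 6.29% of all genes that passed the filter, and by 19 in BA, against 7.39%. The median log2 difference over the 48 genes was 1.61 in DiBA and 1.73 in BA, and it was 0 over all genes in either comparison. That 0 falls among exact ties. Of all genes, 37.0% in DiBA and 34.5% in BA had the fibroblast value, against 2.08% of the 48 in each. Both comparisons use the same fibroblast array. The range ran from Atp5g1, the only member below fibroblasts in either sample, to Cox8b.

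**Figure D1:**
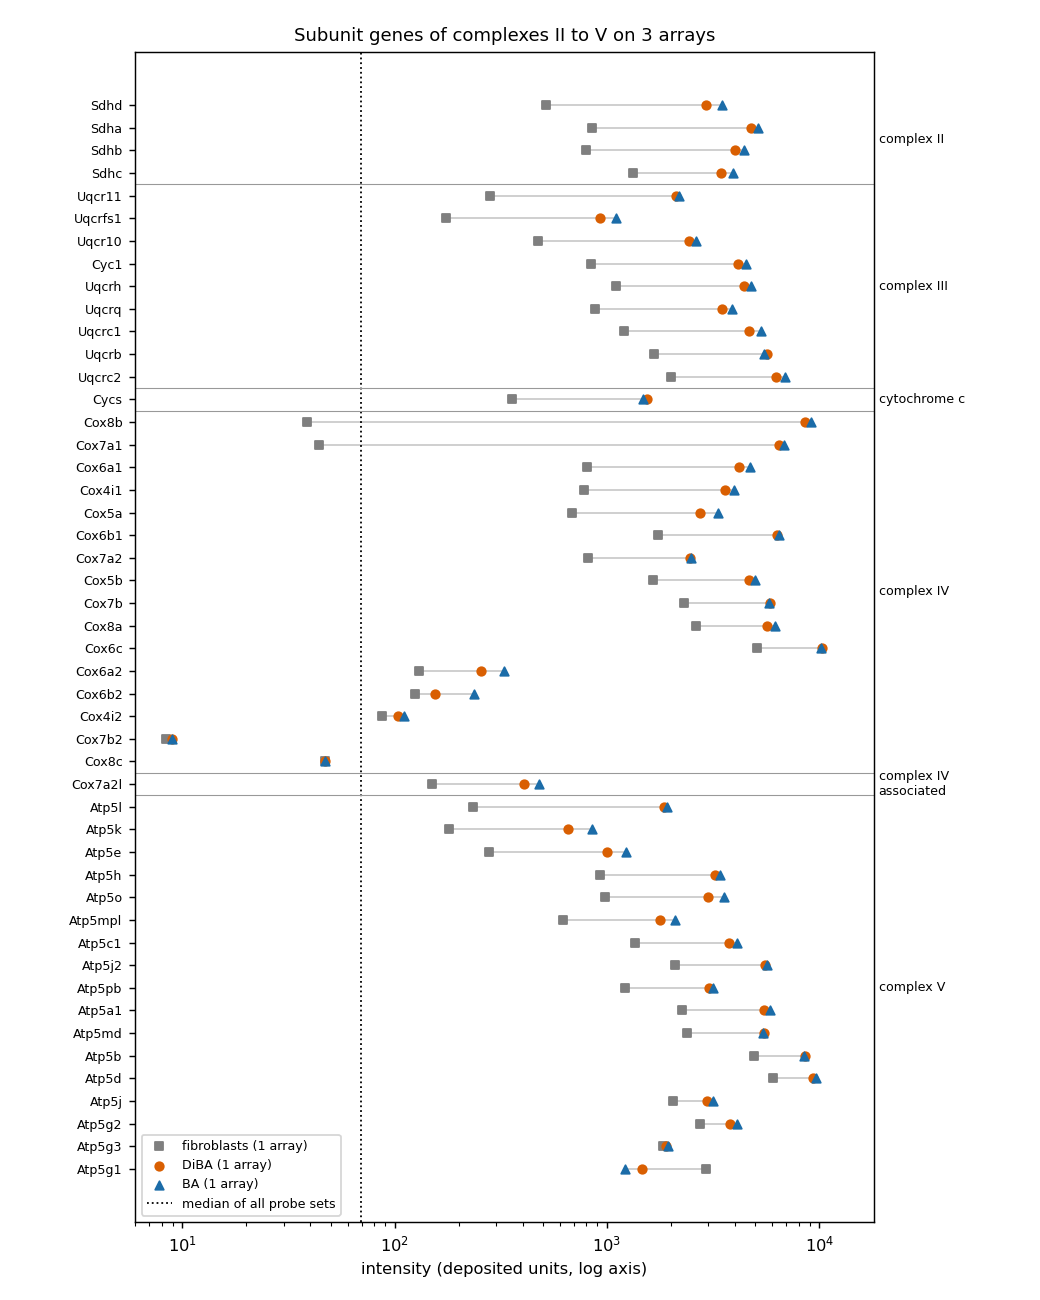
Deposited intensity (log axis) of the 48 genes on the fibroblast, DiBA and BA arrays, by complex, each symbol being 1 array, with the median of all probe sets (69.2) as a dotted line. For most genes the DiBA and BA symbols lie close together to the right of the fibroblast symbol, Cox8b and Cox7a1 span the widest distance, and Atp5g1 lies to the left.

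All 4 subunits of complex II were at least 2-fold higher in DiBA and in BA, and the complex had a median log2 difference of 2.41 in DiBA and 2.53 in BA. Sdha, the flavoprotein that oxidizes succinate, had an intensity of 851 in fibroblasts, 4743 in DiBA and 5123 in BA, which is 5.57-fold higher in DiBA and 6.02-fold higher in BA. Sdhb, the iron-sulphur subunit, had 794 in fibroblasts, 4005 in DiBA and 4433 in BA. The membrane anchor Sdhd had 514 in fibroblasts, 2937 in DiBA and 3461 in BA, the largest difference of the complex on both arrays, at 2.51 (log2) in DiBA and 2.75 in BA. The other anchor, Sdhc, had the smallest, with 1320 in fibroblasts, 3436 in DiBA and 3929 in BA, or 2.60-fold and 2.97-fold. Fibroblasts were lowest and BA highest for each of the 4 genes.

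All 9 genes of complex III were also at least 2-fold higher in both samples, with medians of 2.01 (log2) in DiBA and 2.14 in BA. The largest difference was that of Uqcr11, a small subunit, which had an intensity of 279.8 in fibroblasts, 2105 in DiBA and 2177 in BA, or 7.50-fold and 7.76-fold. Uqcrfs1, the Rieske iron-sulphur protein that takes electrons from ubiquinol, followed with 175 in fibroblasts, 926 in DiBA and 1107 in BA. Cyc1, the cytochrome that passes them on to cytochrome c, had 838 in fibroblasts, 4158 in DiBA and 4504 in BA. The core protein Uqcrc2 had the smallest difference in DiBA, 1.63 (log2), with 2009 in fibroblasts, 6238 in DiBA and 6852 in BA. The small subunit Uqcrb had the smallest in BA, 1.72, with 1672 in fibroblasts, 5668 in DiBA and 5496 in BA. The remaining 4 genes, Uqcrc1, Uqcrq, Uqcrh and Uqcr10, lay between 1.95 and 2.36 in DiBA and between 2.11 and 2.47 in BA.

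Cycs, the mobile carrier between complexes III and IV, was 4.33-fold higher in DiBA and 4.14-fold higher in BA as the mean of its 3 probe sets. These disagreed in level. The brighter ones read 931 and 1800 in fibroblasts, 5658 and 8399 in DiBA, and 4902 and 6990 in BA, while the third read 26.1, 76.7 and 93.2. Cytochrome c is known for many processed gene copies in the mouse genome, and the probe table does not say which locus a probe set reads. Without the dim probe set the log2 difference was 2.41 in DiBA and 2.18 in BA. In all, 13 of the 48 genes had more than 1 probe set. Outside Cycs, the probe sets of a gene differed by at most 0.46 in their log2 difference between DiBA and fibroblasts, the value of Uqcrb.

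Of the 16 genes of complex IV, 11 were at least 2-fold higher in DiBA and 12 in BA, and none was lower. The 9 subunits outside the tissue isoforms were all higher in both, with a median of 1.61 (log2) in DiBA and 1.62 in BA. Cox6a1 led these 9, with an intensity of 808 in fibroblasts, 4193 in DiBA and 4717 in BA, or 5.18-fold and 5.83-fold. Cox4i1, the ubiquitous form of the subunit that senses the ATP to ADP ratio, had 778 in fibroblasts, 3595 in DiBA and 3941 in BA. Cox5a, another subunit that surrounds the catalytic core, had 687, 2732 and 3343 in the same order. The smallest difference was that of Cox6c, with 5073 in fibroblasts, 10286 in DiBA and 10203 in BA, which is 2.03-fold and 2.01-fold. Its count as higher in DiBA rests on the scaling, since its log2 difference of 1.02 became 0.94 with each array centred on its median. The count also rests on averaging its probe sets, which gave 1.088 and 0.951 in DiBA. In BA they gave 1.065 and 0.951, with a mean of 1.008, so both calls lie at the limit. Cox7a2l, which joins complexes III and IV into supercomplexes, had 150.5 in fibroblasts, 407 in DiBA and 481 in BA. Cox7c was no member, since its 3 probe sets also carry the symbol of a pseudogene, Gm12338, and their log2 differences lay between 1.01 and 1.05 in DiBA and between 0.96 and 0.99 in BA.

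The tissue isoforms of complex IV did not move as a group. Cox7a1 and Cox8b were far higher in DiBA and BA than in fibroblasts. Cox6a2 passed the 2-fold limit in BA, at 2.50-fold, and fell just short of it in DiBA, at 1.96-fold. Cox4i2, Cox6b2, Cox7b2 and Cox8c did not reach it in either. Cox8b had an intensity of 38.7 in fibroblasts, 8593 in DiBA and 9124 in BA, a log2 difference of 7.76 in DiBA and 7.84 in BA. It ranked 4 of 11621 genes in DiBA and 4 of 11663 in BA. Cox7a1 had 43.9 in fibroblasts, 6464 in DiBA and 6780 in BA, at 7.17 and 7.24, and ranked 11 in each comparison. In fibroblasts both genes were dimmer than 69.2, a range in which background makes up much of a reading, so these folds are imprecise. With dimmer readings raised to 69.2, Cox8b was 122.5-fold higher in DiBA and 130.1-fold in BA, and Cox7a1 92.2-fold and 96.7-fold.

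Their ubiquitous forms differed much less. Cox8a had an intensity of 2615 in fibroblasts, 5681 in DiBA and 6158 in BA, or 2.17-fold and 2.36-fold. Cox7a2 had 810 in fibroblasts, 2469 in DiBA and 2494 in BA, or 3.04-fold and 3.08-fold. The log2 difference of Cox8b exceeded that of Cox8a by 6.64 in DiBA and 6.61 in BA, and that of Cox7a1 exceeded that of Cox7a2 by 5.56 and 5.62. With the low values raised to 69.2, these gaps were 5.82 and 5.79 for Cox8b and 4.92 and 4.97 for Cox7a1. These are gaps between differences. Intensities of different probe sets are not compared as levels.

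For Cox6a2, Cox6b2 and Cox4i2 the order was the reverse, the ubiquitous form having the larger difference. Their fibroblast readings lay between 87.4 and 130.2, not far above 69.2, so background may understate their differences. Cox6a2, the muscle form, had an intensity of 130.2 in fibroblasts, 256 in DiBA and 327 in BA, or 1.96-fold and 2.50-fold, and its log2 difference fell short of that of Cox6a1 by 1.40 in DiBA and 1.22 in BA. Cox6b2 had 125 in fibroblasts, 154 in DiBA and 236 in BA, 1.24-fold and 1.89-fold, against 1741, 6301 and 6453 for Cox6b1. Cox4i2, known to respond to low oxygen, had 87.4 in fibroblasts, 103 in DiBA and 111 in BA, against the 4.62-fold and 5.06-fold differences of Cox4i1. Cox7b2 stayed near 9 units on every array, at 8.36, 8.95 and 8.95, and Cox8c had exactly 47.0 on all 3, so both lay below the level filter. At such readings their differences cannot be ranked against those of Cox7b and Cox8a. Cox7b, the ubiquitous partner of Cox7b2, had 2303 in fibroblasts, 5881 in DiBA and 5790 in BA.

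**Figure D2:**
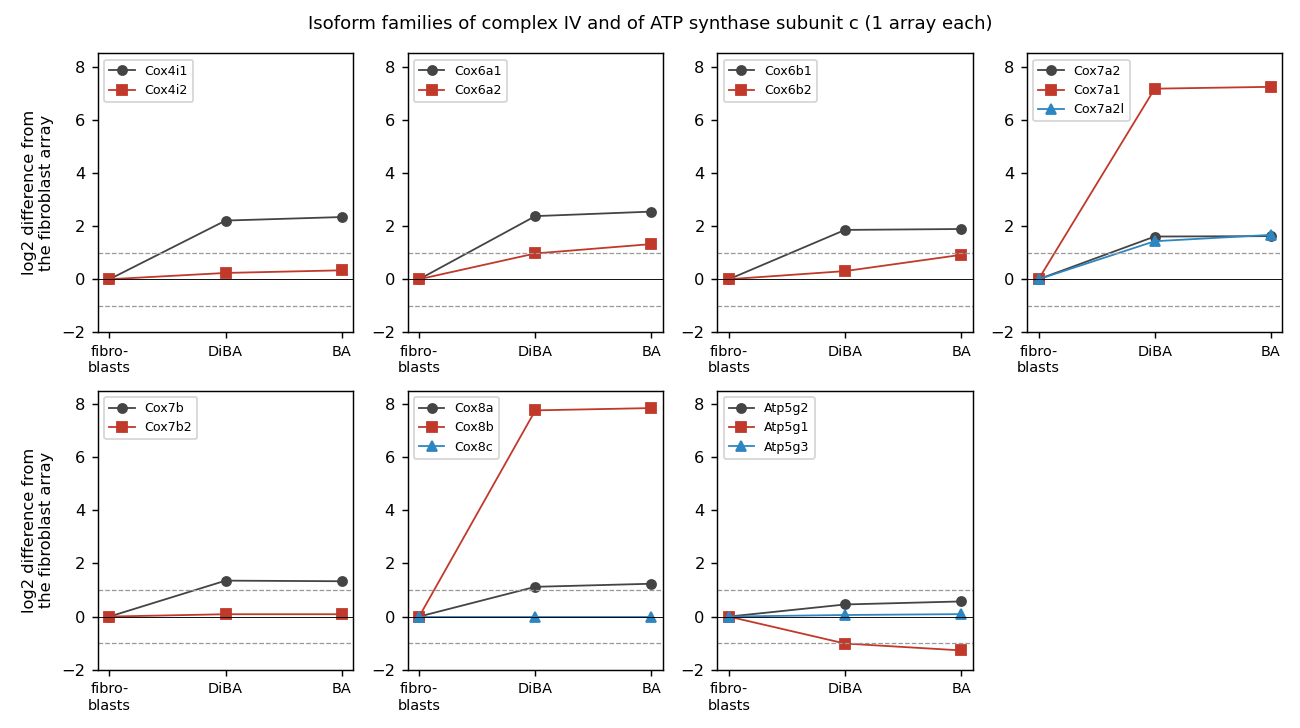
Log2 difference from the fibroblast array for each isoform family of complex IV and for ATP synthase subunit c, 1 array per group, with dashed lines at 2-fold and lines joining the arrays of a gene. Cox7a1 and Cox8b rise above 7 in DiBA and BA while Cox7a2 and Cox8a stay below 2, and Atp5g1 falls below its partners.

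Markers of striated muscle were examined because Cox6a2, Cox7a1 and Cox8b are named above as heart and skeletal muscle forms. Muscle markers were not the only ones that were higher. The 12 brown adipocyte markers had median log2 differences of 5.02 in DiBA and 5.20 in BA. Of 19 skeletal muscle markers, 15 were at least 2-fold higher in DiBA and 15 in BA than in fibroblasts, and 1 was lower in each, the slow fibre gene Tnni1. The summed intensity of the 19 was 3678 in fibroblasts, 21466 in DiBA and 24265 in BA. In fibroblasts 6 of the 19 lay below 69.2, and none did in DiBA or BA. The largest differences in DiBA were those of Pvalb, a calcium buffer of fast fibres, at 5.40 (log2), Myh4, a myosin of fast fibres, at 4.76 and Ckm, the muscle creatine kinase, at 4.70. Of 7 heart muscle markers, none was at least 2-fold higher, 3 were lower in each sample and 4 were not called, with Myl3 above fibroblasts at 0.55 in DiBA and 0.95 in BA. The summed intensity of the 7 was 2734 in fibroblasts, 489 in DiBA and 580 in BA. The largest heart marker differences were those of Actc1 and Tnnt2, at -3.35 and -3.31 in DiBA, and Nppa at -1.54. The parts of muscle RNA and of brown adipocyte RNA in the values of Cox7a1, Cox8b and Cox6a2 were not tested. All 8 testis markers lay below 69.2 on every array, as did Cox7b2 and Cox8c. Cox6b2, also known from testis, lay above it on all 3 arrays.

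The promoters of the isoform pairs are shown because the members of a pair moved so differently. Each line gives the 250 bases before the gene's first annotated base, in RefSeq annotation of GRCm38.p6, read 5′ to 3′ on the gene's strand, with capitals for matches to the motifs searched below.
Cox7a1: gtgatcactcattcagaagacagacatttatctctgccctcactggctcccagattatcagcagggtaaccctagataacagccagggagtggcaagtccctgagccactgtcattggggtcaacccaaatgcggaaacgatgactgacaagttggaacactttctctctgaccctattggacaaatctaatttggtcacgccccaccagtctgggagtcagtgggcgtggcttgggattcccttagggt
Cox7a2: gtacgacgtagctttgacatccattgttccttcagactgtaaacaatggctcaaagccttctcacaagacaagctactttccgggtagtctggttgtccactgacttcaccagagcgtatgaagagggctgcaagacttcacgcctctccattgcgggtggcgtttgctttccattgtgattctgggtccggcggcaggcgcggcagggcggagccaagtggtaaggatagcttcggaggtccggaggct
Cox8b: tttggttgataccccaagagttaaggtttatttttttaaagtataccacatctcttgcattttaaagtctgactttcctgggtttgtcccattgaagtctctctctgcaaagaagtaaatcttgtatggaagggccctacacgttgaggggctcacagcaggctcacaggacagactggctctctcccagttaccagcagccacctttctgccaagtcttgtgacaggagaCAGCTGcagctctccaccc
Cox8a: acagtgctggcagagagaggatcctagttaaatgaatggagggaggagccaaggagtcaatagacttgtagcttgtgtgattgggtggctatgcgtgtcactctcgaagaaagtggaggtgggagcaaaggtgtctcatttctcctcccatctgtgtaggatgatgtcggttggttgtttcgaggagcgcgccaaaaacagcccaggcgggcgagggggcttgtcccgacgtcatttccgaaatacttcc
Atp5g1: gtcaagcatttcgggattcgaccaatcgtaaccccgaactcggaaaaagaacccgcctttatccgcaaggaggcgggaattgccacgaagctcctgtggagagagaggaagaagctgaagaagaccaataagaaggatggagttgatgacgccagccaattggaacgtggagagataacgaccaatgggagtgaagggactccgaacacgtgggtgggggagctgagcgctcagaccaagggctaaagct
Atp5g2: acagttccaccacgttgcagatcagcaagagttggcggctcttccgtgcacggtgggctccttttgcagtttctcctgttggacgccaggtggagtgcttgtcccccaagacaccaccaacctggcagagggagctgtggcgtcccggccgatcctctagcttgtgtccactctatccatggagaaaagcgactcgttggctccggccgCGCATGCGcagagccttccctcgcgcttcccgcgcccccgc
The windows lie at chr7:30183921-30184170 (plus strand) for Cox7a1, chr9:79759854-79760103 (minus strand) for Cox7a2, chr7:140900447-140900696 (minus strand) for Cox8b. The others lie at chr19:7217617-7217866 (minus strand) for Cox8a, chr11:96075632-96075881 (minus strand) for Atp5g1, chr15:102671048-102671297 (minus strand) for Atp5g2.

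Within these windows, Cox8b held 1 CpG dinucleotide and Cox7a1 held 4, against 11 for Cox8a and 14 for Cox7a2. The table had promoters for 36 of the 48 genes, and their median was 14 CpG, against 6 for all 27025 genes with a promoter. Cox8b and Cox7a1 had the lowest counts among these 36 genes, followed by Cox7b and Uqcr10 with 5 each. Motifs were searched on both strands. The NRF1 core GCATGCG, a motif of a transcription factor of nuclear genes for respiratory proteins, was present in 7 of the 36 genes (19.4%), against 3.43% of all genes. Those 7 were Atp5g2, Atp5j, Atp5k, Atp5l, Cox6a1, Cycs and Sdhb. The GABP site CCGGAAG, recognised by another such factor, was present in 9 of 36 (25%), against 7.83% of all genes, among them Sdhd, Uqcr11, Uqcrh, Cox6a1 and Atp5l. The NRF1 core overlaps its own reverse complement where both are present, as in the Atp5g2 window printed above. The NRF1 and GABP motifs both contain a CpG, and the windows of these genes hold more CpG than those of all genes. Whether their shares exceed those of other promoters with as many CpG was not tested.

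The motif AAGGTCA of the oestrogen-related receptors was present in 2 of 36 genes (5.56%, against 4.70%), Atp5g3 and Atp5l. The YY1 site AAGATGG was present in 1, Atp5j (2.78%, against 5.18%). The MyoD E-box CAGCTG was present in 2, Atp5b and Cox8b (5.56%, against 14.7%), and the MEF2 motif in 1, Cox5b (2.78%, against 3.70%). The window of Cox7a1 held no match to these 6 motifs, nor did those of Cox7a2, Cox8a and Atp5g1. A match is a description of letters in this window and not a site shown to be bound.

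Complex V held the only member that was lower. Of its 17 genes, 11 were at least 2-fold higher and 1 was lower in each sample, with a median log2 difference of 1.32 in DiBA and 1.39 in BA. These medians were the lowest of the 4 complexes, a difference between sets that was not tested. The enzyme has a catalytic head (F1), a peripheral stalk, a ring of subunit c through which protons pass, and small membrane subunits that help it form dimers.

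In the F1 head, 3 of 5 genes were at least 2-fold higher in both samples. Atp5b, the catalytic beta subunit, had an intensity of 4936 in fibroblasts, 8528 in DiBA and 8432 in BA, or 1.73-fold and 1.71-fold, short of the limit. Its partner Atp5a1, the alpha subunit, had 2262 in fibroblasts, 5462 in DiBA and 5845 in BA, or 2.41-fold and 2.58-fold. The central stalk subunit Atp5d had 1.54-fold in DiBA and 1.58-fold in BA, and Atp5e, a small subunit of the same stalk, had the largest difference of the head at 1.84 and 2.13 (log2). In the peripheral stalk, which holds the head still, 3 of 4 genes were higher in both. Atp5h, Atp5o and Atp5pb lay between 1.32 and 1.79 in DiBA, and Atp5j at 0.54.

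All 5 small membrane subunits were at least 2-fold higher in both samples. Atp5l led complex V, with a mean over its 6 probe sets of 232.6 in fibroblasts, 1860 in DiBA and 1917 in BA, or 7.97-fold and 8.21-fold. Its probe sets gave log2 differences between 2.80 and 3.11 in DiBA. Atp5k, which supports dimers of the enzyme, followed with 180.5 in fibroblasts, 658 in DiBA and 845 in BA. Atp5j2, Atp5md and Atp5mpl lay between 1.20 and 1.51 in DiBA and between 1.17 and 1.74 in BA.

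The 3 genes for subunit c encode the same mature protein behind different import signals, and none of them was 2-fold higher. Atp5g1, described in rodent brown fat as the form that limits the amount of ATP synthase, was lower. Its probe sets read 2804 and 3081 in fibroblasts, 1411 and 1500 in DiBA, and 1179 and 1253 in BA. The fibroblast array was highest and BA lowest on both. The mean was 2.02-fold lower in DiBA and 2.42-fold lower in BA, and the probe sets gave log2 differences of -1.04 and -0.99 in DiBA, so its count as lower there lies at the limit. Atp5g2 had 2754 in fibroblasts, 3776 in DiBA and 4086 in BA, or 1.37-fold and 1.48-fold higher. Atp5g3 had 1827, 1903 and 1947, or 1.04-fold and 1.07-fold. The log2 difference of Atp5g1 lay 1.47 below that of Atp5g2 in DiBA and 1.84 below it in BA.

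**Figure D3:**
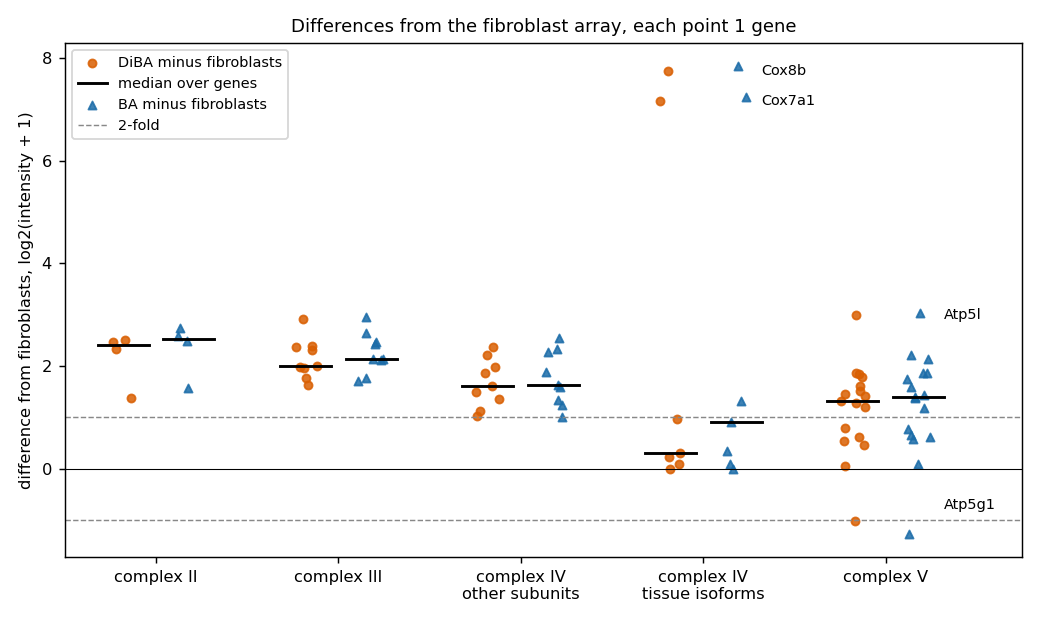
Log2 difference from the fibroblast array by complex, each point 1 gene, for DiBA (circles) and BA (triangles), with the median over genes as a bar and 2-fold as dashed lines. Every gene of complexes II and III lies above 2-fold, among the tissue isoforms of complex IV, Cox7a1 and Cox8b lie above 7 and the other 5 between 0 and 1.32, and Atp5g1 lies below the rest of complex V.

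Genes that assist or complete these complexes were read from a separate list. Of 40 assembly factors listed, 36 were measured, of which 15 were at least 2-fold higher in DiBA and 17 in BA than in fibroblasts, with none lower and medians of 0.79 and 0.92 (log2). Cox17, the chaperone that brings copper to complex IV, had an intensity of 66.0 in fibroblasts, 333 in DiBA and 376 in BA, a difference of 2.32 and 2.49. Cmc1, a factor of early complex IV assembly, followed at 2.11 and 2.21, and Uqcc1, a factor of complex III, at 2.10 and 2.43. When the brightest probe set stood for each gene, the medians of the assembly list were 0.92 and 1.12.

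Of 19 other names listed, 5 were measured as genes outside the 48. The rest are names, and are not a count of genes without a measurement. Atpif1, the inhibitor that stops ATP synthase from running backwards, was lower, with 3295 in fibroblasts, 1476 in DiBA and 1054 in BA, a log2 difference of -1.16 and -1.64. It shared this direction with Atp5g1. Ndufa4, a protein now placed in complex IV, was 5.76-fold higher in DiBA and 6.66-fold in BA. COX2, the mitochondrially encoded subunit of complex IV that holds a copper centre, had 4349 in fibroblasts, 9432 in DiBA and 8589 in BA, 2.17-fold and 1.98-fold. Ndufa4l2 and Cyct, the testis form of cytochrome c, did not reach 2-fold in either sample.

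Complex I, the set most like this one, served for comparison. Of its 33 genes measured, 30 were at least 2-fold higher in DiBA and 31 in BA, with none lower, and medians of 1.70 and 1.88 (log2). Its range in DiBA was 0.87 to 3.11, from Ndufa2 to Ndufb8, without a member as high as Cox8b or as low as Atp5g1. The difference between the sets was not tested.

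In the direct comparison, DiBA and BA lay close together, for these genes and for the arrays as a whole. Markers of other cell types lay close as well. Skeletal muscle markers summed to 21466 in DiBA and 24265 in BA, against 3678 in fibroblasts. Endothelial markers summed to 2472 in DiBA and 2937 in BA, against 370.1 in fibroblasts. How far the closeness of DiBA and BA reflects converted cells was not tested. None of the 48 genes was at least 2-fold higher or lower in DiBA than in BA, against 1.75% higher and 0.0% lower among all genes that passed the filter. With so few genes called in all, the absence of calls does not set the 48 genes apart. The log2 differences ran from -0.61 for Cox6b2 to 0.26 for Atp5g1, with a median of -0.10. DiBA lay below BA for 39 of the 48 genes, above it for 7 and at the same value for 2, Cox7b2 and Cox8c. Among all genes passing the filter, 41.3% lay below, and 50.5% of those that reached the 75th percentile of intensity. Exact ties count as not below, and they lower these shares. DiBA and BA had the same value for 47.3% of all probe sets, against 3 of the 70 member probe sets (4.29%). Over all genes without the filter, 30.8% lay below BA and 24.1% above. The 39 of 48 is therefore not compared like for like with these shares. The count of 39 also depends on the scaling, which moves many genes across 0. It was 42 with quantile normalization, where 69.7% of all genes passing the filter lay below, and 47 with each array centred on its median, where 77.5% did. With centring, Atp5g1 alone stayed above 0.

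By complex, DiBA lay below BA for 4 of 4 genes of complex II (median -0.17), 8 of 9 of complex III (-0.12), 12 of 16 of complex IV (-0.09) and 14 of 17 of complex V (-0.08). After Cox6b2, the widest gaps below BA were those of Atp5k at -0.36, Cox6a2 at -0.35, and Cox5a and Atp5e at -0.29. The 7 genes above BA were Atp5g1, Cycs at 0.06, Uqcrb at 0.04, Atp5md at 0.03, and Cox7b, Atp5b and Cox6c at 0.02, 0.02 and 0.01. For Cycs the brighter probe sets gave 0.21 and 0.26 and the dim one -0.28. Cox8b and Cox7a1 differed little, at -0.09 and -0.07. Other lists varied. The medians were -0.16 for complex I (32 of 33 below), -0.12 for assembly factors (31 of 36), -0.21 for skeletal muscle markers (19 of 19), -0.30 for endothelial markers (5 of 5), and -0.11 for brown adipocyte markers (9 of 12). Prdm16 was the only brown adipocyte marker that differed by 2-fold or more. It had 1084 in DiBA and 223 in BA, 4.85-fold higher in DiBA. Macrophage markers had a median of -0.02, heart muscle and testis markers and the other subunits and regulators had 0, and fibroblast markers had 0.25, with 7 of 9 above BA. The part of those cell types in the values of the 48 genes was not tested.

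**Figure D4:**
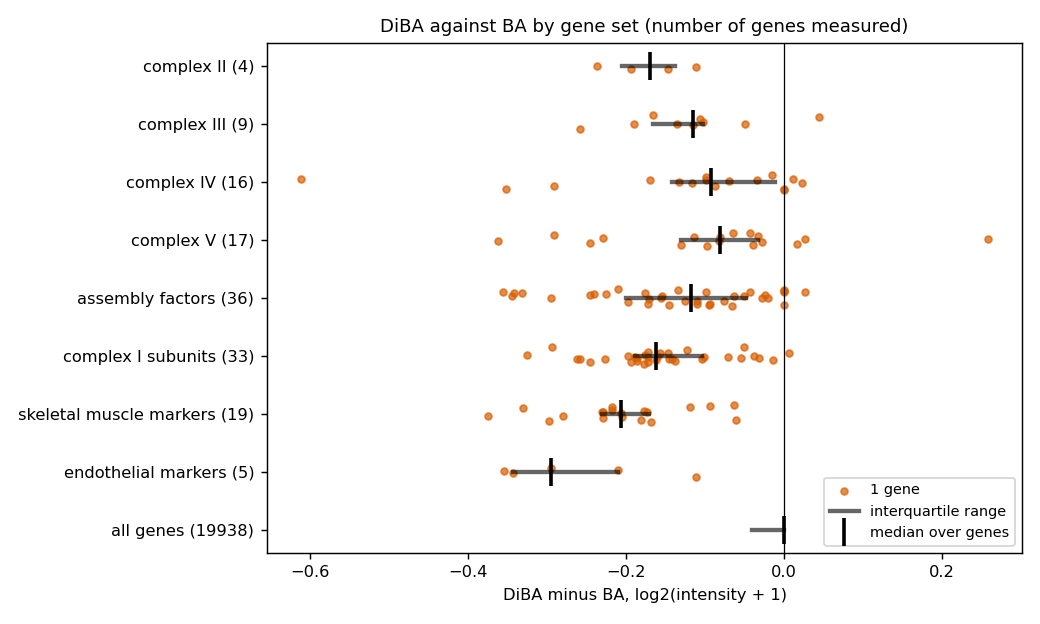
Log2 difference of DiBA minus BA by gene set, each point 1 gene, with the median as a tick and the interquartile range as a bar (points of all genes are not drawn). Most points of each complex lie between -0.4 and 0, with Cox6b2 at -0.61 and Atp5g1 at 0.26 farthest out.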

How the data were processed

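For each array the authors deposited a linear intensity of every probe set. Expression Console of Affymetrix made these values, per the submitters' processing notes. Its version, the summarization and the normalization are not stated there. The arrays' medians lie close together, at 67.8 in fibroblasts, 71.5 in DiBA and 67.7 in BA, so the values were taken as already normalized. Why 33.4% of probe sets carried the same value on all 3 arrays was not tested. RNA was isolated with ISOGEN II and biotinylated by a whole-transcript kit, per the labels' protocols.

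Values were analysed as log2(intensity + 1), and probe sets of a gene were averaged. Dim genes have understated differences on this scale. Gene names came from the platform's probe table. All 70 member probe sets matched RefSeq by gene identifier, with no symbol changed. A probe set with several symbols was given no gene name. Promoters came from the RefSeq table of GRCm38.p6.

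With 1 array per group, no test was run and the number of arrays limits the precision. Members, lists and the naming rule (every member may be named, with full values for isoforms and the extremes of each complex, and the 3 largest differences of each list) were chosen with earlier results of these data known. Alternatives covered centring, quantile normalization, a pseudocount of 16, no filter, a 75th percentile filter, low values raised to 69.2 and the brightest probe set. The calling steps were tested on simulated data. Python 3.11.15, numpy 2.4.6 and pandas 2.3.3 were used.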

Additional observations from a re-analysis of the deposited data

How the results depend on the processing

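Of the 48 genes, 47 kept their call against fibroblasts in DiBA, and all 48 in BA, under each of the 7 alternatives. The exception was Cox6c in DiBA with centred arrays. In BA the call of Cox6c was kept but lay at the limit, at 1.008 in the main setting. The members' median log2 difference ranged from 1.54 to 1.61 in DiBA, from 1.69 to 1.73 in BA, and from -0.18 to -0.10 for DiBA against BA. The values that moved most were those of genes dim in fibroblasts. Cox8b in DiBA was 7.30 with a pseudocount of 16 and 6.94 with low values raised, and Cox7a1 was 6.76 and 6.53. Cycs was 1.66 with low values raised and 2.41 without its dim probe set, a choice made after seeing the data. With quantile normalization, 2 in place of 1 of the other subunits and regulators were at least 2-fold higher in BA. No paired analysis was possible because each group holds 1 array. Signal near background limits the values of Cox7b2, Cox8c and, in fibroblasts, Cox7a1 and Cox8b. It may also understate the differences of Cox4i2, Cox6b2 and Cox6a2, which were dim in fibroblasts.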
